A study of Mus musculus with 30 samples.

Results

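The SoxC group of transcription factor genes, Sox4, Sox11 and Sox12, was followed through newborn mouse retina in which Polycomb repression was targeted in the ganglion cell lineage. The members were chosen by gene symbol as the 3 genes of that group, and each of the 3 is among the 38720 gene symbols of both deposited tables. Mutant mice carried Math5Cre, a Cre recombinase driven by the control elements of Math5 (Atoh7), a gene of cells that are about to become ganglion cells. The labels give 2 mutant genotypes, Math5Cre; Ezh2f/fG9af/+ and Math5Cre; Ezh2f/f, so that floxed Ezh2 is common to both and a floxed copy of the G9a gene Ehmt2 is present in 1 of them. Wild type (WT) mice were C57BL/6. Retinas were taken at P0, the day of birth, and retinal ganglion cells (RGCs), the neurons that send the optic nerve to the brain, were drawn out with magnetic beads against CD90, the protein encoded by Thy1. The cells that stayed behind, pooled, are the non-RGC fraction. The tables cover 9 poly(A) RNA libraries, 3 of mutant non-RGC cells, 3 of mutant RGCs and 3 of WT RGCs, and call the mutant only "mut", so which of the 2 genotypes it was cannot be told from them.

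SoxC proteins carry a high mobility group (HMG) box, with which they bind and bend DNA, and a transactivation domain at the C-terminal end. Sox4 and Sox11 are strong activators that newborn neurons use to turn on neuronal genes, and in the mouse retina loss of both together leaves few ganglion cells. Sox12 is a weaker activator with overlapping expression. Ezh2 is the enzyme within the Polycomb complex that methylates histone H3, and this complex acts mostly at CpG-rich promoters of developmental regulators, while G9a methylates another lysine of the same histone.

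Each SoxC gene is a compact gene without introns. On GRCm38 (mm10), RefSeq places Sox4 at chr13:28948919-28953699, a span of 4781 bases, Sox11 at chr12:27334268-27342718, a span of 8451 bases, and Sox12 at chr2:152393611-152398046, a span of 4436 bases, all on the minus strand. Sox11 and Sox12 overlap no other RefSeq gene, while Sox4 overlaps the noncoding gene Gm46405, which the deposited tables do not list. The promoter windows of the 3 genes, from 250 bases before to 50 bases after the RefSeq start on GRCm38.p6, are shown because CpG content is the promoter property most tied to Polycomb, and the group differs in it. Capitals mark the CCAAT box (CCAAT or, on the other strand, ATTGG) and the octamer ATGCAAAT, the motif of POU factors, several of which work beside SoxC proteins. The windows are chr13:28953650-28953949 for Sox4, chr12:27342669-27342968 for Sox11 and chr2:152397997-152398296 for Sox12, each given 5′ to 3′ in the direction of transcription.
Sox4: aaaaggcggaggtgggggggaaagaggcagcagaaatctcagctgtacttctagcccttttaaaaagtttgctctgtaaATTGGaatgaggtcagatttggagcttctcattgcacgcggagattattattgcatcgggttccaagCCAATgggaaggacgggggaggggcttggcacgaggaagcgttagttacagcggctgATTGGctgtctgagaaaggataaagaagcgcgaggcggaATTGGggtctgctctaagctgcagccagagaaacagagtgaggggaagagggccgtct
Sox11: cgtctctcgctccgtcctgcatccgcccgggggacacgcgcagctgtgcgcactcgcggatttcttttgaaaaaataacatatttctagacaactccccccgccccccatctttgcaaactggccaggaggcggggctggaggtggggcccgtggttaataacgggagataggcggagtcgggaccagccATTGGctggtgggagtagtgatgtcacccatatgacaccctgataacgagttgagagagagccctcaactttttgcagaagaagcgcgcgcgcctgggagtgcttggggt
Sox12: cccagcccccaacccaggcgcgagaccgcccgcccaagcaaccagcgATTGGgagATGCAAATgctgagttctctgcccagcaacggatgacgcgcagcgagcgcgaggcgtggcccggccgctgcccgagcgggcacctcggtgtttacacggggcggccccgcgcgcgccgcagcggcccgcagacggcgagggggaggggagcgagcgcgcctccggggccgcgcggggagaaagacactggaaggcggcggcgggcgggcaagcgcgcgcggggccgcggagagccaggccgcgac

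The 3 promoters form a series of CpG content. The Sox4 window held 12 CpG dinucleotides, the Sox11 window 21 and the Sox12 window 47, where the median over 32851 RefSeq promoter windows of the same length was 7. More CpG than in Sox12 was rare, since 98.6% of windows had fewer, against 75.2% for Sox11 and 60.4% for Sox4. The share of G and C was 52.0% in Sox4, 58.7% in Sox11 and 76.7% in Sox12. The CCAAT letters, on either strand, were found 4 times in Sox4 and once each in Sox11 and Sox12. They stood in 37.4% of all windows, and in 11.7% more than once. The octamer, searched as ATGCAAAT and ATTTGCAT, was found in Sox12 alone among the 3 and in 1.74% of all windows. The letters TATAAA were in none of the 3 windows and in 13.6% of all windows on either strand. No measurement of histone methylation at these promoters was analysed here.

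The 9 libraries held between 10551825 and 12259494 reads assigned to genes after duplicate removal. Whether a group's libraries were made from different animals is not stated, so the p-values speak of the spread among libraries, which may be technical. Library numbers 1 to 3 run from the largest to the smallest size factor of each group, since the tables give no replicate number. Summed over 13 ganglion cell markers, the normalised count lay between 4911 and 10393 in mutant non-RGC libraries, between 16716 and 26704 in mutant RGC libraries and between 34208 and 39401 in WT RGC libraries, so the mutant fractions stood in the order that their names give. Of the mutant RGC libraries, library 1 stood apart, with a ganglion cell sum of 16716 where the others had 26605 and 26704, and a sum of 8 microglia markers of 5481 where the others had 1510 and 1368. Of the WT RGC libraries, library 3 had a sum of 12 proliferation markers of 19181, where the others had 11301 and 12608. Its progenitor and Mueller glia sum was 26867, where the others had 19466 and 19928. Its ganglion cell sum was 34208, where the others had 38524 and 39401. Ezh2 itself averaged 1906 ± 48.9 in mutant RGCs and 1289 ± 242 in WT RGCs (SD, n = 3 each; log2 0.58, standard error 0.13, adjusted p = 0.0292 by limma). That call was lost without any 1 mutant RGC library or without WT library 1 or 2 (adjusted p up to 0.117). Ehmt2 averaged 2753 ± 362 in mutant RGCs and 3702 ± 143 in WT RGCs (SD, n = 3 each; log2 -0.43, standard error 0.11, adjusted p = 0.0332 by limma), a difference that was called in 2 of 6 fits with 1 library left out. Counts over a whole gene do not check a floxed deletion.

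Taken over all 9 libraries on 1 common scale, the SoxC genes were expressed at well over 1000 normalised counts in every library, Sox4 most evenly and Sox12 least. Sox4 had 2922, 3078 and 3311 normalised counts in mutant non-RGC libraries, 2923, 3113 and 3209 in mutant RGC libraries and 3082, 3205 and 3420 in WT RGC libraries. The 3 groups overlapped, and the highest of the 9 values was 1.17-fold the lowest. Sox11 had 1595, 1708 and 1492 in mutant non-RGC libraries, 1614, 1867 and 1924 in mutant RGC libraries and 1718, 1708 and 1736 in WT RGC libraries. Its highest value, in mutant RGC library 3, was 1.29-fold its lowest, in non-RGC library 3. Sox12 had 2235, 2381 and 2587 in mutant non-RGC libraries, 2504, 2791 and 2871 in mutant RGC libraries and 3182, 3059 and 3081 in WT RGC libraries. Sox12 had the widest range of the 3, with every WT RGC library above every mutant library of either fraction and a highest value 1.42-fold the lowest. Its mutant fractions overlapped. Lack of overlap was common, since mutant and WT RGCs did not overlap for 51.1% of all genes tested between them.

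**Figure D1:**
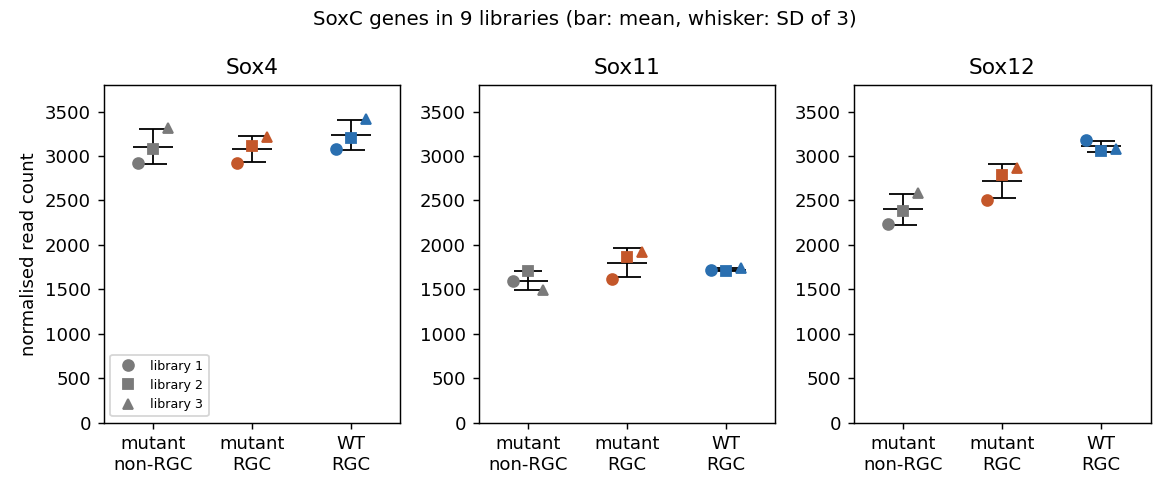
Normalised read counts of Sox4, Sox11 and Sox12 in each of 9 libraries on the scale of size factors over all 9, with a bar at the mean and whiskers at the SD of 3 libraries, for mutant non-RGC, mutant RGC and WT RGC libraries. Sox4 lies between 2922 and 3420 in every group, and Sox12 averages 2401 in mutant non-RGC cells, 2722 in mutant RGCs and 3107 in WT RGCs.

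Levels of different genes were set side by side per length, with the RefSeq span standing for the transcript, since none of the 3 genes is spliced. The annotation used for counting is not given, and duplicate removal limits the reads that a short and abundant gene can hold. The order below is therefore that of counts per span and may differ from that of the RNA. Per 1000 bases of span, Sox4 reached 649 ± 40.9 normalised counts in mutant non-RGC cells, 645 ± 30.5 in mutant RGCs and 677 ± 35.8 in WT RGCs (SD, n = 3 each). Sox12 reached 541 ± 39.9, 614 ± 43.5 and 700 ± 14.8 in the same order of groups, a level close to that of Sox4. Sox11, the longest of the 3, reached 189 ± 12.8, 213 ± 19.6 and 204 ± 1.65 in that order. Its libraries did not overlap those of Sox4 or Sox12 per length in any group, so Sox11 came last in all 3 groups. Sox4 and Sox12 did not keep 1 order in all groups, Sox4 standing higher on average in both mutant fractions and Sox12 in WT RGCs. Their libraries overlapped per length in mutant RGCs and in WT RGCs and not in mutant non-RGC cells. The intronless progenitor gene Sox2, which keeps neural progenitors in cycle, reached 957 ± 47.2 in mutant non-RGC cells, 840 ± 47.4 in mutant RGCs and 534 ± 159 in WT RGCs on the same per-length scale.

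How far each gene varied over the 9 libraries was set beside the other genes of these tables, as a description. The SD of the log2 normalised count was 0.08 for Sox4, 0.11 for Sox11 and 0.18 for Sox12. Among 4014 genes with a mean of at least 1000 the median SD was 0.18, and 7.90% of them varied less than Sox4, 24.7% less than Sox11 and 49.5% less than Sox12. Sox4 was thus among the steadier abundant genes and Sox12 near the middle.

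Setting mutant against WT RGCs asks whether the bead-selected fraction of mice with Math5Cre and floxed Ezh2 differs from that of WT mice. Both are bulk fractions, so a different cell mix and a different amount of RNA per ganglion cell cannot be told apart. None of the 3 SoxC genes passed the test, where 26% of the 15276 genes tested were called at an adjusted p under 0.05 by limma. On the size factors of the authors for these 6 libraries, Sox4 had 2896, 3216 and 3279 normalised counts in mutant RGCs, against 3056, 3162 and 3404 in WT RGCs. The mutant values fell within or just below the WT range, with a log2 fold change of -0.04 (standard error 0.08, adjusted p = 0.753 by limma). Its 95% interval ran from 0.859-fold to 1.11-fold.

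Sox11 had 1599, 1928 and 1966 normalised counts in mutant RGCs, against 1704, 1685 and 1727 in WT RGCs. Mutant library 1 was below all WT libraries and the other mutant libraries above them, which gave means of 1831 ± 202 in mutant RGCs and 1705 ± 21.2 in WT RGCs (SD, n = 3 each). The log2 fold change of 0.10 (standard error 0.09) did not pass (adjusted p = 0.448 by limma). Its interval ran from 0.920-fold to 1.24-fold. Without mutant library 1 the log2 fold change of Sox11 was 0.19, at an adjusted p of 0.0615 by limma, and without mutant library 2 or 3 it was 0.06 and 0.04.

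Sox12 had 2481, 2883 and 2933 normalised counts in mutant RGCs, against 3156, 3017 and 3067 in WT RGCs. All 3 mutant libraries lay below all 3 WT libraries, which makes Sox12 the 1 member of 3 whose groups did not overlap, where the groups did not overlap for 51.1% of all genes tested. The means were 2766 ± 248 in mutant RGCs and 3080 ± 70.1 in WT RGCs (SD, n = 3 each), which put the log2 fold change at -0.16 (standard error 0.08) and did not pass (adjusted p = 0.172 by limma). The interval ran from 0.784-fold to 1.02-fold. Without mutant library 1, the lowest of the 6 for Sox12, the log2 fold change was -0.08 (adjusted p = 0.288 by limma). In the authors' deposited table the adjusted p was 1 for Sox4 and Sox11 and 0.777 for Sox12, in a table that calls 11.9% of its genes.

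The comparison of the mutant fractions asks how the bead selection divided SoxC transcripts between ganglion cells and the remaining retina. In bulk fractions fewer cells of a type and less RNA per cell cannot be told apart. None of the 3 genes passed here either, where 17.1% of 15178 genes tested were called. The comparison shares its mutant RGC libraries with the one above. Sox4 had 3046, 3199 and 3422 normalised counts in mutant non-RGC cells, against 2988, 3269 and 3356 in mutant RGCs. The fractions overlapped, as they did for each of the 3 members, where 37.7% of all genes tested showed no overlap. Sox4 had a log2 fold change of 0.01 (standard error 0.07, adjusted p = 0.951 by limma) and an interval from 0.898-fold to 1.13-fold.

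Sox11 had 1662, 1776 and 1543 normalised counts in mutant non-RGC cells, against 1649, 1960 and 2013 in mutant RGCs. The non-RGC mean of 1660 ± 117 and the RGC mean of 1874 ± 196 (SD, n = 3 each) gave a log2 fold change of -0.17 (standard error 0.09, adjusted p = 0.261 by limma). Sox12 had 2329, 2476 and 2674 in mutant non-RGC cells, against 2559, 2931 and 3002 in mutant RGCs. Its log2 fold change was -0.18 (standard error 0.08, adjusted p = 0.181 by limma). For both genes it was mutant RGC library 1 that lay within the non-RGC range. The intervals ran from 0.762-fold to 1.03-fold for Sox11 and from 0.771-fold to 1.01-fold for Sox12. Without mutant RGC library 1, the library with the fewest ganglion cell transcripts of its group, both passed, Sox11 at a log2 fold change of -0.26 (adjusted p = 0.0463 by limma) and Sox12 at -0.25 (adjusted p = 0.0437 by limma), while Sox4 stayed at -0.04 (adjusted p = 0.682 by limma). The fit without that library called 3396 of all 15178 genes tested, 2421 of them lower. The part that the different cell mix of that library plays was not tested. In the authors' deposited table the adjusted p was 1 for Sox4, 0.834 for Sox11 and 0.743 for Sox12, where 6.47% of genes were called.

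**Figure D2:**
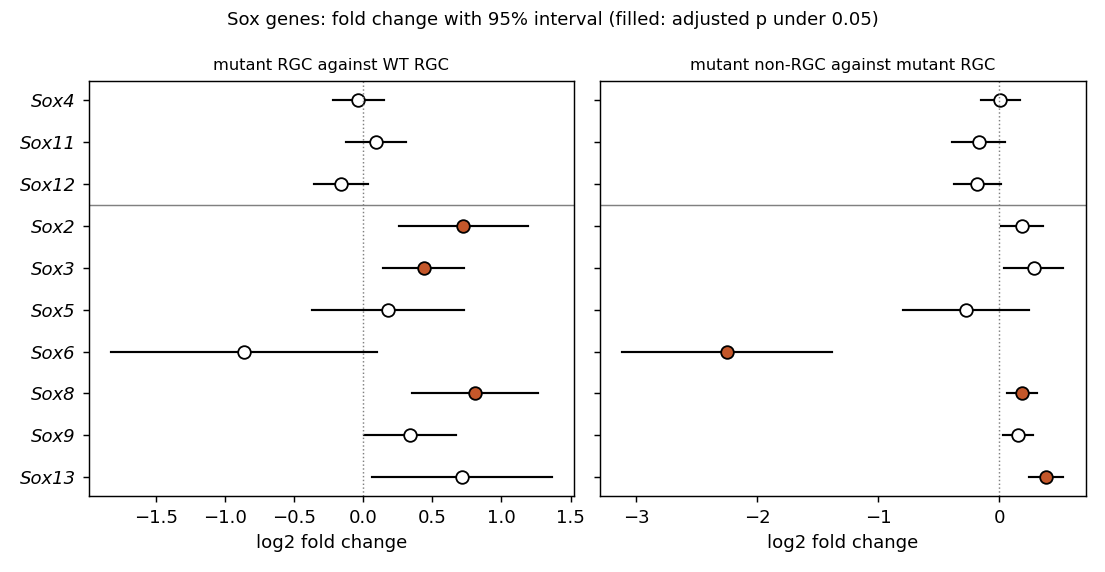
Log2 fold changes with 95% intervals from limma for the 3 SoxC genes (above the line) and for the other tested Sox genes that reached a mean of 100 normalised counts in the second-named group of either comparison, in mutant RGCs against WT RGCs and in mutant non-RGC cells against mutant RGCs. Filled points have an adjusted p under 0.05. The SoxC genes stay between -0.18 and 0.10, while Sox6 reaches -2.25 in the fractions.

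Within a library, the ratio of 2 SoxC genes needs no scaling between libraries. The log2 ratio of Sox12 to Sox11 was 0.60 ± 0.03 in mutant RGCs and 0.85 ± 0.03 in WT RGCs (SD, n = 3 each), without overlap, a difference of -0.26 (two-sided exact permutation p = 0.1). The ratio of Sox12 to Sox4 was -0.18 ± 0.04 in mutant RGCs and -0.06 ± 0.10 in WT RGCs, a difference of -0.12 (exact permutation p = 0.1) that was -0.07 without WT library 1. Between the fractions that ratio was -0.37 ± 0.02 in mutant non-RGC cells and -0.18 ± 0.04 in mutant RGCs, a difference of -0.19, again without overlap (exact permutation p = 0.1). The smallest p that 3 against 3 libraries allow is 0.1. Adjusted over the 6 ratios compared, these 3 had p = 0.2 (Benjamini-Hochberg on exact permutation p). The other 3 ratios overlapped between the groups, with differences of 0.13 for Sox11 to Sox4 between genotypes, and -0.18 for Sox11 to Sox4 and -0.01 for Sox12 to Sox11 between fractions (exact permutation p = 0.2, 0.2 and 1). Without non-RGC library 3 the ratio of Sox11 to Sox4 differed by -0.08 between fractions.

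The counts were taken after duplicate removal, which limits the number of reads a short and abundant gene can hold. Sox4 held between 3038 and 3336 reads in the 9 libraries, 0.635 to 0.698 reads per base of its span. Sox12 held 2323 to 3238 reads, or 0.524 to 0.730 per base, and Sox11 1451 to 2000 reads, or 0.172 to 0.237 per base. The mitochondrial gene mt-Co1, at 1.07 to 1.11 reads per base, varied from 1648 to 1721 reads. Sox4 reads differed 1.10-fold between the 9 libraries while the size factors differed 1.18-fold, and in each group the library with the largest size factor had the lowest normalised Sox4 count and the library with the smallest the highest. Sox2, at 0.418 to 1.04 reads per base, differed 2.50-fold in reads, and it overlaps the noncoding gene Sox2ot. What part duplicate removal plays in the even Sox4 values was not tested.

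**Figure D3:**
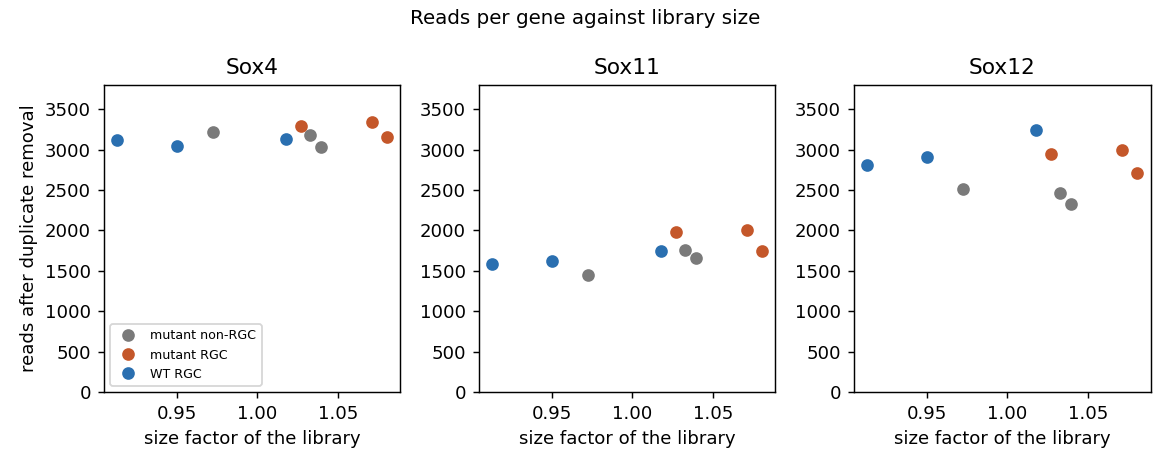
Reads after duplicate removal for Sox4, Sox11 and Sox12 against the size factor of each library, coloured by group (mutant non-RGC, mutant RGC, WT RGC). Sox4 reads stay between 3038 and 3336 across size factors from 0.913 to 1.08.

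Some of the other Sox genes passed the test. Of 17 such genes, 12 reached the mean of 10 normalised counts needed for testing between genotypes, and 3 of them rose and none fell, against 13.7% higher and 12.3% lower over all genes tested. The 3 were Sox2, Sox3 and Sox8, the first 2 from the SoxB1 group of progenitor factors and the last from the SoxE group of glial and neural crest factors. Sox2 had 1921, 2217 and 2181 normalised counts in mutant RGCs, against 1086, 1072 and 1762 in WT RGCs (log2 0.73, standard error 0.20, adjusted p = 0.0407 by limma). Sox8 had 2438, 2476 and 2437 in mutant RGCs, against 1224, 1151 and 1940 in WT RGCs (log2 0.81, standard error 0.19, adjusted p = 0.0314 by limma), and Sox3 averaged 829 ± 29.7 in mutant RGCs and 616 ± 104 in WT RGCs (SD, n = 3 each; log2 0.44, adjusted p = 0.0439 by limma). WT library 3 was the highest WT library for each of them, and all 3 calls were lost without any 1 mutant library or without WT library 1 or 2 (adjusted p up to 0.155 by limma). Those fits called 2280, 3, 9, 9 and 8 of all 15276 genes, in the order mutant library 1 to 3 and WT library 1 and 2.

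Between the mutant fractions, 11 of the other Sox genes were tested, and Sox8 and Sox13 rose and Sox6 fell, against 5.07% higher and 12% lower over all genes tested. Sox6, a SoxD gene, averaged 117 ± 42.4 in mutant non-RGC cells and 566 ± 212 in mutant RGCs (SD, n = 3 each; log2 -2.25, standard error 0.37, adjusted p = 0.0116 by limma), and was not called without non-RGC library 1 (adjusted p = 0.0538). Sox13, another SoxD gene, had 1378, 1462 and 1365 normalised counts in mutant non-RGC cells, against 1049, 1070 and 1102 in mutant RGCs (log2 0.38, standard error 0.06, adjusted p = 0.0108 by limma), a call lost without non-RGC library 1 or mutant RGC library 2 (adjusted p up to 0.0534). Sox8 differed by 0.19 (adjusted p = 0.0477 by limma) and was called without mutant RGC library 1 but not without any other library. Neither rise was called by 1 fit over all 9 libraries or in the authors' deposited table, which both called 0 of these genes higher and 1 lower. Sry, the founding gene of the family, was at 0 reads in all 9 libraries. The median log2 fold change of the 12 tested other Sox genes was 0.20 between genotypes, from 0.06 to 0.38 with 1 library left out (lowest without mutant library 1, highest without mutant library 2). Over 16 of the other Sox genes, with no filter on low values, it was 0.34 by limma and 0.61 in the authors' deposited table. Between fractions the median of the tested genes was 0.19, and 0.06 without non-RGC library 2. The median of the SoxC genes was -0.04 and -0.17 in the same comparisons, beside 0.00 and 0.01 for all genes tested.

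Of 34 genes linked to SoxC factors, as partners, reported targets or neighbours in the ganglion cell programme, 4 rose and 3 fell between genotypes, where 26% of all genes were called. The median over the 34 was -0.08 and had no settled sign, since it was 0.05 without WT library 3 and 0.01 without mutant library 2. Among the partners, Pou3f2, a POU factor that can bind next to SoxC proteins, averaged 837 in mutant RGCs and 525 in WT RGCs and rose by 0.68 (adjusted p = 0.0242 by limma). Tead1, Prox1 and Neurog2 rose by 0.82, 0.74 and 1.16, and Mapt, which encodes the axonal protein tau, Klf6 and Gdf15 fell by 0.53, 0.29 and 1.34. None of the 34 was called without WT library 1 or 2 or without mutant library 2 or 3, where only 9, 8, 3 and 9 of all 15276 genes were called. Gdf15 was not called with any library left out (adjusted p up to 0.131 by limma). Neurog2 was also lost without mutant library 1, and Klf6 without WT library 3. With no filter on low values 4 of the 34 rose and 1 fell, where 1635 and 1463 of all 25332 genes did. In the same libraries 4 of 9 dissociation and immediate early genes fell, where 12.3% of all genes did. Among them Npas4 fell by 2.47 (adjusted p = 0.0144 by limma). None of the 9 was called without mutant library 2 or WT library 1 or 2, where Npas4 had an adjusted p up to 0.0914 by limma. Without mutant library 3, 2 of the 9 were called. The sum of the 9 genes lay between 14009 and 15828 in mutant RGCs and between 19508 and 21080 in WT RGCs. The part of that difference in the values of SoxC and linked genes was not tested. Of the genes tied to SoxC in the retina, the axon guidance receptor gene Plxna1 averaged 3730 ± 364 in mutant RGCs and 4998 ± 735 in WT RGCs (SD, n = 3 each; log2 -0.42, adjusted p = 0.0548 by limma), which did not pass. The neuronal tubulin gene Tubb3 had a log2 fold change of -0.22 (adjusted p = 0.0737 by limma), the microtubule gene Dcx -0.50 (0.154), the adhesion gene Nrcam -0.07 (0.571), and the Notch genes Notch1 and Hes5 0.47 (0.0501) and -0.11 (0.616), with limma adjusted p in parentheses.

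Between the mutant fractions 13 of the 34 linked genes were called, where 17.1% of all genes were. In mutant non-RGC cells 5 of them were higher and 8 lower, and the median over the 34 was 0.07. Plxna1 averaged 2419 ± 150 in mutant non-RGC cells and 3817 ± 348 in mutant RGCs (SD, n = 3 each; log2 -0.66, standard error 0.08, adjusted p = 0.0071 by limma), Dcx 1886 ± 377 and 4605 ± 1312 in the same groups (log2 -1.26, adjusted p = 0.0156 by limma) and Nrcam 2771 ± 41.8 and 3388 ± 184 (log2 -0.29, adjusted p = 0.0185 by limma). Mapt, Map2, Gap43, Sema6d and Isl2 fell by 0.98, 0.35, 0.98, 1.18 and 1.75. Hes5, an effector of Notch signalling in progenitors, averaged 666 ± 35.5 in mutant non-RGC cells and 456 ± 20.3 in mutant RGCs (log2 0.55, adjusted p = 0.0091 by limma), and Hes1, Dll1, Tead2 and Zic2 rose by 0.42, 0.28, 0.40 and 0.26. Plxna1, Mapt, Sema6d, Hes5 and Tead2 were called whichever library was left out, with adjusted p up to 0.0486 by limma. Each of the other 8 was lost without non-RGC library 1 and also without mutant RGC library 2 or 3 (adjusted p up to 0.120 by limma). Those fits called 440, 594 and 622 of all 15178 genes.

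**Figure D4:**
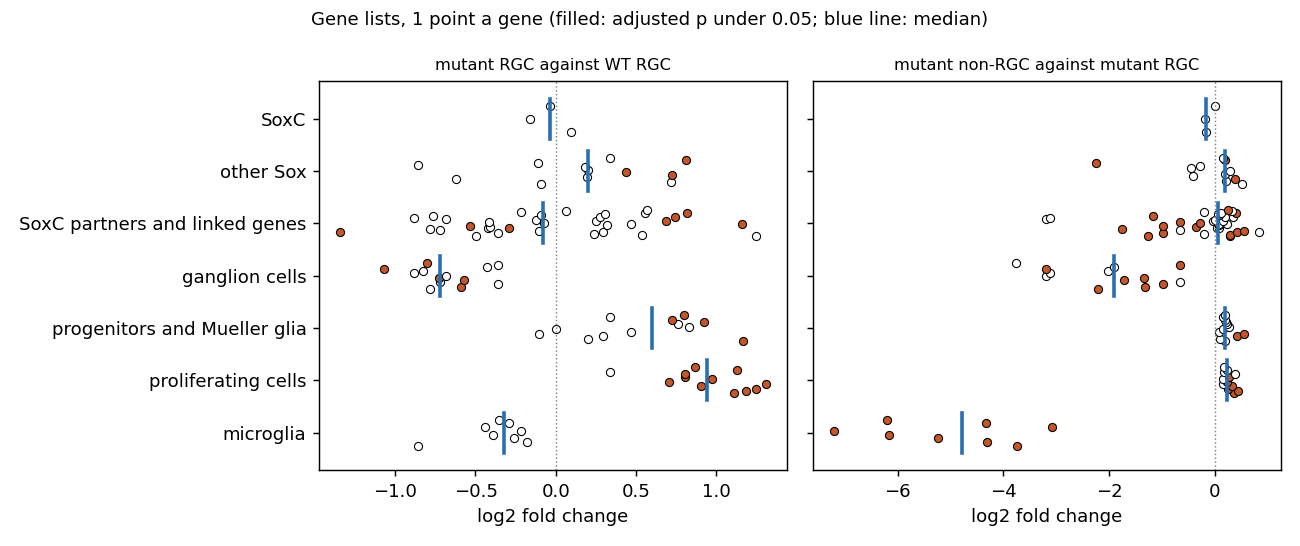
Log2 fold changes of single genes in 7 lists, in mutant RGCs against WT RGCs and in mutant non-RGC cells against mutant RGCs, with 1 point a tested gene, filled where the adjusted p was under 0.05, and a line at the median of the list. The 3 SoxC genes cluster near 0 in both panels, while ganglion cell markers have medians of -0.72 and -1.91.

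Marker lists of the cell types in the suspension differed in how many of their genes passed. Of 13 ganglion cell markers, 5 fell between genotypes, where 12.3% of all genes did, and 7 fell between fractions, where 12% did, and none rose in either. Between genotypes 12 fell without mutant library 1, where 1164 of all 15276 genes tested fell. None fell without mutant library 2 or 3 or WT library 1 or 2. Those fits called only 3, 9, 9 and 8 of all genes, so that loss is not particular to these markers. The median of the ganglion cell markers, -0.72, became -0.40 without mutant library 1. Between fractions 1 fell without non-RGC library 1 and 12 without non-RGC library 3, where 396 and 1662 of all 15178 genes fell. Pou4f2, a ganglion cell factor that depends on Atoh7, averaged 1522 ± 538 in mutant RGCs and 2682 ± 345 in WT RGCs (SD, n = 3 each; log2 -0.88, adjusted p = 0.0579 by limma), and had 355, 516 and 25.5 normalised counts in non-RGC libraries. Of 12 proliferation markers, 11 rose between genotypes, where 13.7% of all genes did, and 6 between fractions, where 5.07% did. Between genotypes 5 rose without mutant library 1, where 1116 of all genes rose. The count was 0 without mutant library 2 or 3 or WT library 1 or 2, where 2, 6, 8 and 7 of all genes rose. Between fractions 0 rose in 1 fit over 9 libraries, without non-RGC library 1 or without mutant RGC library 2 or 3. In those fits 449, 44, 78 and 91 of all genes rose. Their sum was between 29872 and 31083 in mutant non-RGC cells, between 24812 and 25984 in mutant RGCs and between 11301 and 19181 in WT RGCs. Progenitor and Mueller glia markers summed to between 32396 and 32986, between 28542 and 30176, and between 19466 and 26867 in the same groups. Between genotypes 4 of these 12 markers rose, where 13.7% of all genes did. So did 4 of 6 amacrine, 4 of 8 photoreceptor, 2 of 5 horizontal cell and 1 of 4 endothelial markers, and none fell. Without mutant library 1 the counts were 0, 4, 2, 2 and 0 in that order, where 1116 of all genes rose. They were 0 without mutant library 2 or 3 or WT library 1 or 2. In those fits 2, 6, 8 and 7 of all genes rose. Between fractions 2, 1, 0, 0 and 0 rose, where 5.07% of all genes did. None of 8 microglia markers passed between genotypes, where 4 fell without mutant library 1, beside 1164 of all genes. All 8 fell between fractions, but only 3 under voom weights, 5 in the authors' deposited table and 5 without non-RGC library 1. In those settings 1517, 1340 and 396 of all genes fell. These markers, none at 0 throughout, summed to 59.1 at most in mutant non-RGC cells, to between 1368 and 5481 in mutant RGCs and to between 2248 and 3185 in WT RGCs. The part of these cell mixtures in the SoxC values was not tested.

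The genes whose levels ran most like each member over the 9 libraries differed from member to member. The search took in 12030 genes with a mean of at least 50, passing over the member itself and names of predicted genes, clones and pseudogenes. Among these, Sox4 had its highest Pearson correlations of log2 values with Tsg101 (0.97), Uqcrc1 (0.95), Marcksl1 (0.93), Rab1b and Ccdc23 (0.92 each). Sox11 ran most like Zbtb5 (0.96), Rapgef1 (0.93), Slc16a14 (0.91), Smoc1 (0.91) and Prkch (0.90). Sox12 ran most like Klhdc8a, Hebp2, Tradd, Pcsk1n and Fam134a, each at 0.99. The members were not each other's nearest, with correlations of 0.60 between Sox4 and Sox12, 0.47 between Sox11 and Sox12 and 0.15 between Sox4 and Sox11. These 9 libraries come from 3 groups and differ in cell mix between and within them, so the correlations describe the libraries and carry no test.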

How the data were processed

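Poly(A) RNA of bead-separated newborn retina was sequenced from 1 end. Per the submitters' processing notes, reads were handled with STAR 2.3, featureCounts and DESeq on mm10, and the names of the deposited tables add primary alignments and duplicate removal. The strand setting and the annotation used for counting are not given in the sources used here. Per the file headers, the 2 deposited tables hold for each gene the mean signal, that is the mean read count divided by size factors, of each condition, the deposited ratio of the conditions as a fold change, its log2 value, and the p-value and adjusted p-value of the authors. The table names give the conditions, and genes at 0 in the condition that both tables share show which column holds it.

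The reads of each library were worked out from the authors' means with numba 0.67.0, since each mean of 3 libraries is a sum of whole multiples of 3 steps. A solution was accepted within 1e-09 of a whole number where any other was over 10 times worse, which was so for at least 99.975% of genes, and 23953 of 23953 mutant RGC genes compared agreed between the tables. The procedure was tested on simulated data. Sox4, Sox11 and Sox12 were recovered in all 9 libraries.

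These counts, over the size factors of the authors, were the values tested. Of each comparison, genes averaging 10 or more across its 6 libraries entered limma 3.58.1 (R 4.3.3) with a variance trend on log2(value + 1), two-sided, with Benjamini-Hochberg adjustment over all genes tested and calls under 0.05. The levels over 9 libraries used median-of-ratios factors over the 9. Ratios of members were compared by exact permutation tests (scipy 1.17.1). Alternatives were other pseudocounts, no filter, other scalings, voom weights, 1 fit over 9 libraries, the authors' test and leaving out each library. Named genes are the 3 members, the tested other Sox genes, called or retina-tied linked genes and the 5 most alike genes of each member. The members and lists were chosen with earlier results of these data known. Promoters and positions are from RefSeq on GRCm38.p6. All 3 members matched by symbol.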

Additional observations from a re-analysis of the deposited data

How the results depend on the processing

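No paired analysis was possible because the libraries recovered from the tables carry no replicate numbers. Sox4, Sox11 and Sox12 were refitted 84 times under other settings, and log2 fold changes lay between -0.26 and 0.19. Adjusted p fell under 0.05 in 2 of these fits, for Sox11 (-0.26) and Sox12 (-0.25) between the mutant fractions without mutant RGC library 1. Sox4 changed sign between genotypes under total-count scaling (0.011). With each library left out in turn, Sox4 ranged from -0.070 to 0.019 between genotypes and from -0.041 to 0.048 between fractions, so its sign is not settled in either. Between fractions Sox11 ranged from -0.26 to -0.12, Sox12 from -0.25 to -0.13 and the log2 ratio of Sox12 to Sox11 from -0.11 to 0.043. Between genotypes Sox11 ranged from 0.04 to 0.19 and Sox12 from -0.20 to -0.08. Genes called in all numbered 3 to 6475 between genotypes with 1 library left out, the most without WT library 3, and 440 to 3396 between fractions, the most without mutant RGC library 1. The authors' deposited table called 1635 genes between fractions, where limma called 2590. Scaling moved the split of calls: between genotypes 2092 were higher and 1879 lower, 1980 and 2291 under upper-quartile scaling and 2395 and 1902 under total-count scaling, and between fractions 770 were higher and 1820 lower, 1030 and 1747 under upper-quartile scaling and 1465 and 1602 under total-count scaling. What moves these calls was not tested. Sox8 was called between fractions at 0.19 and Sox12 was not at -0.18, but the Sox8 call was kept in only 1 of 6 fits with 1 library left out. The size of difference that 3 libraries a group can show was not measured.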
